A study of Mus musculus with 4 samples.

Results

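The common gamma chain cytokine receptors are the receptor proteins through which T cells sense IL-2, IL-4, IL-7, IL-9, IL-15 and IL-21. Their 8 genes, Il2ra, Il2rb, Il2rg, Il4ra, Il7r, Il9r, Il15ra and Il21r, were taken by name from the 50600 genes measured, of which 21751 were protein-coding genes outside the mitochondrial genome. RNA was sequenced from primary mouse cells of strain C57BL/6NJ that the labels call T-helper 17 (Th17), the CD4 T cells that make IL-17. The labels put all 4 libraries in 1 group with no control, treatment or allele, give the age as unknown and the sex as not collected, and link a protocol for differentiating CD4 T cells. Each library had a biosample record of its own, and all 4 shared 1 donor record. The read file names in the headers carry an hour tag of 0. Nothing in the labels says whether these were separate animals or cultures, although the sex-linked transcripts given below differed between libraries. The p-values below therefore speak for these 4 samples alone. Those for single genes test the spread between the samples, and those for gene pairs test ratios taken within each library.

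Each of these receptors is built around IL2RG, the common gamma chain, which carries the kinase JAK3. A private chain gives the receptor its ligand: IL7RA for IL-7, IL4RA for IL-4, IL21R for IL-21 and IL9R for IL-9, each of which carries JAK1. IL-2 and IL-15 share IL2RB with the common gamma chain, and IL2RA and IL15RA raise the affinity for IL-2 and IL-15. Binding brings JAK1 and JAK3 together and activates STAT proteins, chiefly STAT5 for IL-2, IL-7, IL-9 and IL-15, STAT6 for IL-4 and STAT3 for IL-21. In T cells the family is known for survival of resting cells through IL-7, growth after activation through IL-2, and the choice of helper lineage through IL-4 and IL-21.

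In these libraries the genes of the shared chain and of the private chains for IL-7, IL-21 and IL-4 were among the most abundant protein-coding transcripts. The genes of the IL-2 and IL-15 chains were far lower, and the gene of the IL-9 chain was near the limit of detection. Levels are in TPM, a transcript level corrected for gene length and scaled to a fixed total, computed from the deposited fragment counts and each gene's exon length, and are given as mean ± SD over the 4 libraries (n = 4) unless single libraries are named. Of the 8 genes, 7 reached 1 TPM in every library, against 9926 of the 21751 protein-coding genes (45.6%), whose median was 0.355 TPM. The summed level of the 8 genes was between 1865 and 2309 TPM in single libraries, and their median was 152 TPM.

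**Figure D1:**
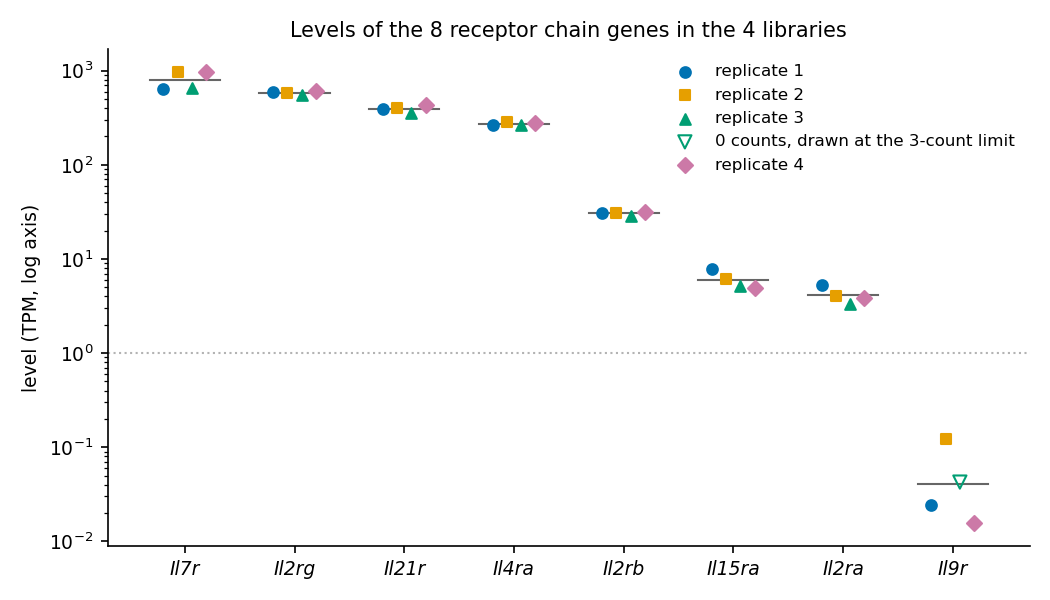
The plot gives the TPM (log axis) of each receptor chain gene in each of the 4 libraries, with a line at the mean and a dotted line at 1 TPM. Il7r, Il2rg, Il21r and Il4ra lie between 265 and 971 TPM, Il2rb lies near 30.7 TPM, Il15ra and Il2ra lie between 3.29 and 7.91 TPM, and Il9r lies below 0.2 TPM, with its count of 0 in replicate 3 drawn at the 3-count limit.

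The label was checked against marker genes. Genes of T cells were abundant, with all 12 listed genes at 1 TPM or more in every library, led by the antigen receptor gene Trac at 3069 ± 37.3 TPM. All 10 genes listed for naive T cells reached that level too, with a median of 570 TPM, led by Tcf7 at 3034 ± 375 and the lymph node homing receptor gene Ccr7 at 865 ± 71.4 TPM. The Th17 list had 7 of 14 genes at that level and a median of 1.06 TPM, with Il17f at 9.83 ± 3.10 and Il17a at 4.22 ± 1.53 TPM. Of the 10 genes listed for activated T cells 9 reached it, with a median of 15.9 TPM. The levels below are therefore those of cells that carried naive T cell transcripts at high levels and most Th17 transcripts at low levels, whatever the label.

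The libraries held 29041979, 35018552, 48808978 and 45490373 counted fragments in replicates 1 to 4, and 1.81% to 2.20% of these were mitochondrial. Xist, the transcript of the inactive X chromosome, was at 224 and 215 TPM in replicates 1 and 2 and at 0.294 and 0.445 TPM in replicates 3 and 4. The Y-linked gene Ddx3y was at 0.439 and 0.658 TPM in replicates 1 and 2 and at 97.2 and 139 TPM in replicates 3 and 4. Sex-linked transcripts were thus of the female type in replicates 1 and 2 and of the male type in replicates 3 and 4. Such a split is not what 1 animal would give, although all 4 libraries share 1 donor record. Averaged over the 12 heat shock genes, log2(CPM + 1) lay -0.48, -0.02, -0.29 and 0.79 from the 4-library mean in replicates 1 to 4, and over the 16 interferon response genes it lay 0.19, 0.35, -0.53 and -0.02 from it. These differences are given beside the results that they run with.

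Upstream sequence is shown for the most abundant private chain gene, for the shared chain gene, for the neighbour of Il15ra and for the scarcest member, so that the genes at both ends of the range can be read side by side. Each is the 250 bases before the RefSeq start in build GRCm38.p6 (mm10), read 5′ to 3′ on the gene's strand, with matches to the motifs named next in capitals. The Il7r window is chr15:9529877-9530126 on the minus strand, the Il2rg window chrX:101268256-101268505 on the minus strand, the Il2ra window chr2:11642542-11642791 on the plus strand and the Il9r window chr11:32200280-32200529 on the minus strand.
Il7r: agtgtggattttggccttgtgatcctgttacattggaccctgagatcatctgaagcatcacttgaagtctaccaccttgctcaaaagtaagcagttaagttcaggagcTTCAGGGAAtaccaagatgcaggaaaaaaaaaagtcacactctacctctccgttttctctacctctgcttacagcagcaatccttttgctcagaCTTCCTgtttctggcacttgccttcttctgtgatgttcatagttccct
Il2rg: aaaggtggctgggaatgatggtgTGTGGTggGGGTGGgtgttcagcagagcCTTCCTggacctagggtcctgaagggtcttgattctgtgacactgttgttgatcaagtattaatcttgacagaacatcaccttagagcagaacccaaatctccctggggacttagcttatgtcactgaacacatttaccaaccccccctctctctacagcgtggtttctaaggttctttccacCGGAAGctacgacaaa
Il2ra: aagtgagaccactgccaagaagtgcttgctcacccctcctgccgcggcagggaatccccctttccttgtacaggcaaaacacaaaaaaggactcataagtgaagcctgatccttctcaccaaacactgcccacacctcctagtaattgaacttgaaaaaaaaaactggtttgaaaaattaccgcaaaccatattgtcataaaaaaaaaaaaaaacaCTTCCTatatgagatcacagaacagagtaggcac
Il9r: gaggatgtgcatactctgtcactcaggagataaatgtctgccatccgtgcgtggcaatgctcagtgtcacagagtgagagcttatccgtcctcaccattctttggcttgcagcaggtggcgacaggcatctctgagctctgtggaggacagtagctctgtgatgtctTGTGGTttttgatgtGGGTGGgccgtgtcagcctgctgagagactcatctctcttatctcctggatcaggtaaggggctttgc

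The motifs searched on both strands were the ETS motif (AGGAAG), its CG form (CGGAAG), the RUNX motif (TGTGGT), the FOXO motif (TGTTTA), the TCF/LEF motif (CTTTGA), the KLF motif (GGGTGG) and the STAT motif (TTCNNNGAA). The table covered 7 of the 8 genes, with 2 windows for Il15ra. The Il7r window held the ETS motif 48 to 43 bases before the start, as its reverse complement, and the STAT motif 142 to 134 bases before it. That was 1 of the 8 windows of these genes with the STAT motif, which was in 7.0% of all 32851 windows of this length. The Il2rg window held the ETS motif, its CG form, the RUNX motif and the KLF motif, the Il2ra window the ETS motif, and the Il9r window the RUNX and KLF motifs. Over the 8 windows the ETS motif was in 5, the KLF motif in 5, the RUNX motif in 3, the CG form in 2 and the FOXO and TCF/LEF motifs in 1 each, against 29.5%, 28.1%, 14.0%, 13.6%, 12.0% and 13.8% of all windows. These matches describe letters and say nothing of binding.

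Il2rg encodes the common gamma chain itself (ENSMUSG00000031304, mm10 chromosome X, 101264378 to 101268255, minus strand). It had 594, 584, 554 and 602 TPM in replicates 1 to 4, from 11816 to 18800 fragments, and averaged 584 ± 21.03 TPM. The 4 values lay within 1.09-fold of each other, with replicate 4 highest and replicate 3 lowest. The coefficient of variation was 3.602%, where counting error alone at this depth would give 0.797%. The biological coefficient of variation in edgeR over 12464 genes, the spread between libraries beyond counting error, was larger at 9.80%. In all, 169 protein-coding genes had a higher mean, which put Il2rg at percentile 99.2.

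The Il2rg level is a low estimate. The gene Gm20489, annotated on the same strand from 101261405 to 101269023, has 12 exon blocks that run from upstream of Il2rg into the next gene, Gm614. It shares 728 of the 2387 exon bases counted for Il2rg, or 30.5%, and 43.6% of the 1670 bases of its longest coding transcript. Gm20489 itself had 0 counts in every library. The file headers show no option to count fragments that overlap 2 genes, so fragments in the shared exons that could not be given to 1 gene were left out, by an unknown number. No other member shared exon bases with a gene on its strand. With the shared bases left out of the gene length, Il2rg averaged 829 ± 29.9 TPM, and with only the unshared bases of the longest transcript it averaged 1056 ± 36.8 TPM.

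Il7r encodes the private chain of the IL-7 receptor (ENSMUSG00000003882, chromosome 15, 9506161 to 9529876, minus strand) and was the most abundant of the private chain genes. It had 632, 971, 654 and 956 TPM in replicates 1 to 4, from 16898, 30954, 29813 and 39646 fragments. Replicates 2 and 4 were high and replicates 1 and 3 were low, and the highest was 1.54-fold the lowest. The mean of 803 ± 185 TPM lay at percentile 99.5 of protein-coding genes, with 112 genes above it. Il7r was among the most variable of these genes, with a coefficient of variation of 23.1%, where counting error alone would give 0.584%. The mean of the heat shock genes was likewise higher in replicates 2 and 4 than in replicates 1 and 3. The mean of the naive T cell list was lower there, at deviations of -0.07 and -0.06 against 0.04 and 0.09, although single genes such as Bach2 were higher. Their part in the spread of Il7r was not tested. The SD of its log2(CPM + 1), where CPM is the count scaled to a fixed total with no length correction, was 0.32 and lay at percentile 98.6 of the 8125 protein-coding genes at a mean of 10 CPM or more.

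Il7r exceeded Il2rg in all 4 libraries when exon lengths were taken as deposited, and this order depends on those lengths. The within-library difference in log2(TPM + 0.1) was 0.09, 0.73, 0.24 and 0.67, a mean of 0.43 ± 0.32, or 1.35-fold. With the unshared exon bases the mean difference was -0.093, with the longest coding transcript -0.23, and with that transcript's unshared bases -1.05. The longest Il7r transcript has 3540 bases, more than the 3208 exon bases counted, which lowers Il7r under the last 2 lengths. The last length also divides the Il2rg fragments by 942 bases, although 1659 of its exon bases were unshared, which raises Il2rg. With the unshared exon bases, which have neither mismatch, Il7r was higher in 2 of 4 libraries. The transcripts of Il7r and Il2rg were thus of the same order, and which was higher cannot be told from these counts.

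**Figure D2:**
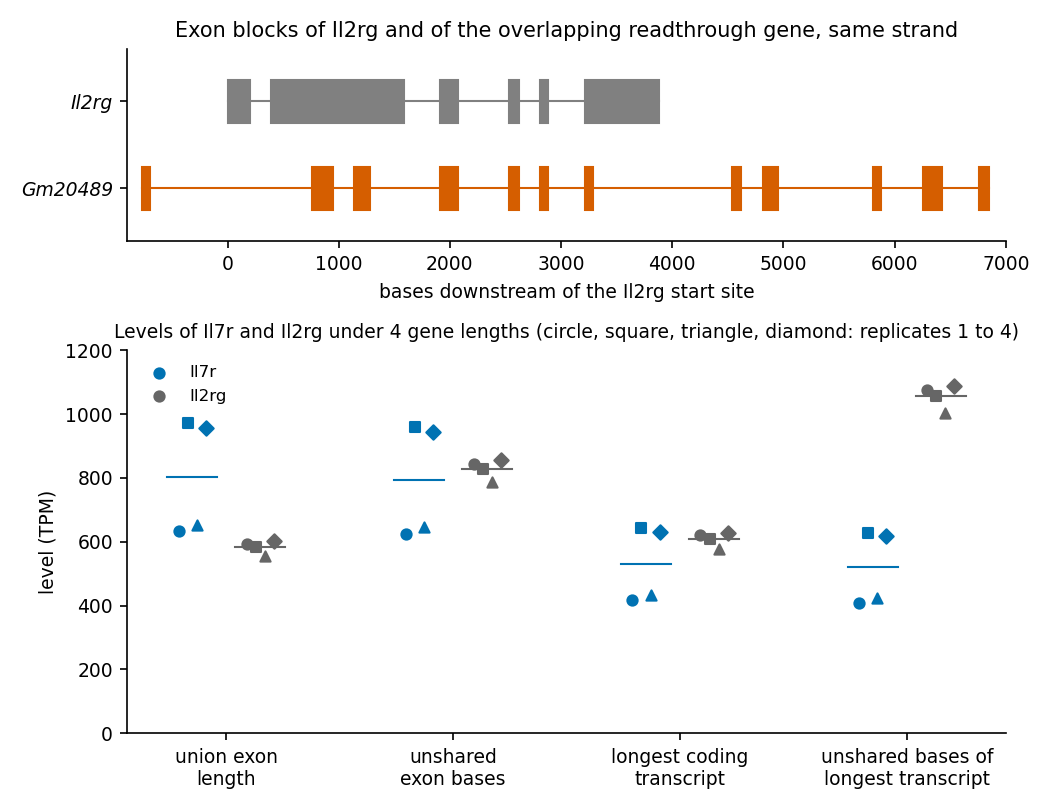
The upper panel draws the exon blocks of Il2rg and of Gm20489 by distance in bases from the Il2rg start, and the lower panel gives the TPM of Il7r and Il2rg in the 4 libraries under 4 gene lengths, with a line at the mean. Il7r lies above Il2rg at 803 against 584 TPM with the union exon length and below it at 520 against 1056 TPM with the unshared bases of the longest transcript.

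Il21r and Il4ra encode the private chains for IL-21 and IL-4 and lie next to each other on chromosome 7, 23954 bases apart on the plus strand. Il21r (ENSMUSG00000030745, 125603429 to 125633570) had 390, 401, 354 and 433 TPM in replicates 1 to 4 and averaged 395 ± 32.6 TPM. Il4ra (ENSMUSG00000030748, 125552120 to 125579474) had 267, 285, 265 and 277 TPM and averaged 274 ± 9.50 TPM. The ranges of these neighbours did not overlap, and Il4ra was the steadiest of the 8 genes, with a coefficient of variation of 3.47%, while that of Il21r was 8.25%. Il21r lay above Il4ra by a log2 difference of 0.53 ± 0.10, in 4 of 4 libraries. Without the correction for length Il4ra lay above Il21r by 0.33, since Il4ra has 6002 counted exon bases and Il21r has 3324. An antisense gene inside Il4ra, Gm44876, had 0 counts.

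Set against the shared chain in the same library, both genes were lower. Il21r differed from Il2rg by -0.57 ± 0.07 and Il4ra by -1.09 ± 0.05 on the log2 scale, or 0.675-fold and 0.469-fold. These ratios varied less between libraries than that of Il7r to Il2rg, whose SD was 0.32. With the unshared bases of the longest transcripts the differences were -1.50 for Il21r and -2.24 for Il4ra, whereas on CPM Il4ra lay above Il2rg by 0.24.

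Il2rb, which encodes the signalling chain of the IL-2 and IL-15 receptors (ENSMUSG00000068227, chromosome 15, 78480553 to 78495066, minus strand), was about an order of magnitude below those genes. It had 31.1, 31.1, 28.6 and 31.9 TPM in replicates 1 to 4, from 721 to 1147 fragments, and averaged 30.7 ± 1.4 TPM, at percentile 75.7. Its coefficient of variation of 4.56% was close to the 3.22% that counting error alone would give. Il2rb differed from Il2rg by -4.25 ± 0.02 on the log2 scale, or 0.0527-fold, the steadiest of the 7 ratios to the shared chain. With the length of the longest coding transcript, which is longer than the exons counted, Il2rb averaged 14.9 ± 0.665 TPM and differed from Il2rg by -5.35.

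CD8 T cells and NK cells also express Il2rb. Of 10 genes listed for CD8 T cells 4 reached 1 TPM in every library, with a summed level of 150 to 166 TPM, led by the perforin gene Prf1 at 65.1 ± 7.28 and Klrd1 at 44.6 ± 4.86 TPM, ahead of Cd8b1 at 42.9 ± 2.88 TPM. Of the genes for the CD8 coreceptor chains, Cd8b1 was thus well measured, while Cd8a was at 0.150 ± 0.0772 TPM. Of 10 genes listed for NK cells 0 reached it, with a summed level of 2.99 to 5.80 TPM, led by Gzma at 1.26 ± 0.354 and Itga2 at 1.07 ± 0.182 TPM. The part of such cells in the Il2rb level was not tested. In bulk RNA, fewer cells of a type and less RNA per cell cannot be told apart.

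Il15ra and Il2ra encode the chains that raise affinity for IL-15 and IL-2, and they lie 12096 bases apart on the plus strand of chromosome 2. Il15ra (ENSMUSG00000023206, 11705290 to 11734317) had 7.91, 6.16, 5.22 and 4.85 TPM in replicates 1 to 4, from 272 to 330 fragments, and averaged 6.04 ± 1.37 TPM. Il2ra (ENSMUSG00000026770, 11642807 to 11693193) had 5.34, 4.05, 3.29 and 3.89 TPM, from 230 to 287 fragments, and averaged 4.14 ± 0.863 TPM. Il2ra encodes CD25 and is known to be low in resting CD4 T cells and high after activation and in regulatory T cells. It was at percentile 58.4 of all protein-coding genes, with 9055 genes above it. As 9926 of those genes reached 1 TPM in every library, it lay low among the genes at that level. Both genes were highest in replicate 1.

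Il15ra and Il2ra were the only neighbours in the order of levels whose ranges overlapped with the deposited lengths. Within each library Il15ra was still the higher, by 0.53 ± 0.15 on the log2 scale in 4 of 4 libraries. Both spread more than counting error alone would give, with coefficients of variation of 22.6% against 5.84% for Il15ra and 20.8% against 6.21% for Il2ra. For each gene the values of replicates 1 and 2, the shallower libraries with Xist above 200 TPM, lay above those of replicates 3 and 4. The list means of activated T cell genes (0.08, 0.15, -0.14 and -0.09 in replicates 1 to 4) and of interferon response genes (0.19, 0.35, -0.53 and -0.02) were also higher in replicates 1 and 2 than in replicates 3 and 4. Both list means were highest in replicate 2, whereas Il15ra and Il2ra were highest in replicate 1. The mean of the Th17 list was highest in replicate 1, at 0.16, -0.05, -0.07 and -0.04 in replicates 1 to 4. The part of depth, of the source animals and of these programmes in the levels of Il15ra and Il2ra was not tested. With the longest coding transcript as its length Il15ra averaged 10.1 ± 2.29 TPM and lay above Il2ra by 1.34, while on CPM it lay above it by 0.18 in 3 of 4 libraries.

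Against the signalling chain Il2rb, Il2ra was lower by a log2 difference of -2.88 ± 0.25 in 4 of 4 libraries, and by -1.92 with the longest coding transcripts. Regulatory T cells carry Il2ra at high levels, and their defining gene Foxp3 was at 3.82 ± 0.406 TPM in the same libraries. Of the 10 genes listed for those cells 7 reached 1 TPM in every library, with a median of 7.79 TPM. The summed level was 307 to 332 TPM, and most of it came from the folate receptor gene Izumo1r at 153 ± 2.27 and Tnfrsf18 at 92.7 ± 9.61 TPM. The mean log2 deviation of this list stayed within -0.07 and 0.04 over the libraries, while that of Il2ra was 0.34 in replicate 1 and -0.25 in replicate 3. Genes listed for myeloid or dendritic cells, which use IL15RA to present IL-15, reached 1 TPM in 3 of 12 cases, with a summed level of 16.1 to 20.2 TPM, with Cd68 the highest at 11.1 ± 2.81 TPM, ahead of Fcgr3 at 4.60 ± 1.04 TPM. The part of either cell type in these levels was not tested.

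Il9r, for the private chain of the IL-9 receptor (ENSMUSG00000020279, chromosome 11, 32187541 to 32200279, minus strand), had 1, 6, 0 and 1 fragments in replicates 1 to 4. These are 0.0243, 0.122, 0 and 0.0156 TPM. The exact 95% Poisson interval in replicate 2 ran from 0.0448 to 0.266 TPM, and the count of 0 in replicate 3 allows up to 0.0427 TPM, the level of 3 counts. Of the 8 fragments, 6 came from 1 library, and the mean of 0.0405 TPM was 0.0133 TPM without replicate 2. Its level cannot be told from a few stray fragments at this depth, and no fold against it is given. Mast cells and group 2 innate lymphoid cells are known for Il9r, and 0 of the 10 genes listed for them reached 1 TPM in every library, with Hdc at 0.224 ± 0.0398 and Kit at 0.102 ± 0.0542 TPM and 5 genes at 0.

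With the deposited exon lengths, the order of the 8 genes was the same in every library, namely Il7r, Il2rg, Il21r, Il4ra, Il2rb, Il15ra, Il2ra and Il9r. Il2rg came before Il7r on average under the 3 other lengths in the plot of gene lengths, and Il4ra was second on CPM. All 28 pairs of members differed in the same direction in 4 of 4 libraries with the deposited lengths. The exact two-sided sign-flip permutation test on the 4 log2 ratios gave p = 0.13 for each pair, the smallest that 4 libraries allow, and the same value after Benjamini-Hochberg adjustment over the 28 pairs, so no pair could pass 0.05. Il4ra was 8.90-fold above Il2rb with the deposited lengths, 15.3-fold with the longest coding transcripts and 19.2-fold on CPM. Il2rb was 5.10-fold above Il15ra with the deposited lengths, 1.49-fold with the longest coding transcripts and 3.21-fold on CPM. Neighbours among the 4 most abundant genes differed by at most 1.48-fold with the deposited lengths, whereas with the unshared bases of the longest transcripts Il2rg was 2.07-fold above Il7r.

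All private chains that pair with the common gamma chain draw on the same product, so their summed level was set against that of Il2rg. Il2rb, Il4ra, Il7r, Il9r and Il21r together came to 1320, 1689, 1302 and 1699 TPM in replicates 1 to 4, against 594, 584, 554 and 602 TPM of Il2rg. The sum was 2.22, 2.89, 2.35 and 2.82 times the level of Il2rg, a mean of 2.57 ± 0.334. It was high in replicates 2 and 4 and low in replicates 1 and 3, as Il7r was. The mean ratio was 1.79 with the unshared exon bases and 1.90 with the longest coding transcripts, and above 1 in every library under both. With the unshared bases of the longest transcripts, which changes the lengths of all these genes and leaves out the shared bases of Il2rg, it was 0.941, 1.19, 0.987 and 1.17 in replicates 1 to 4, a mean of 1.07. Whether the sum exceeds Il2rg thus rests on the gene lengths used. These are ratios of RNA, and protein at the cell surface was not measured.

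Il7r made up 47.9%, 57.5%, 50.2% and 56.3% of the partner sum, more than any other chain in each library. Il21r made up 26.5% ± 2.48, Il4ra 18.4% ± 2.14, Il2rb 2.07% ± 0.250 and Il9r 0.00250% ± 0.00324. The share of Il21r lay between 23.7% and 29.5% and was largest in replicate 1, where Il7r was lowest.

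**Figure D3:**
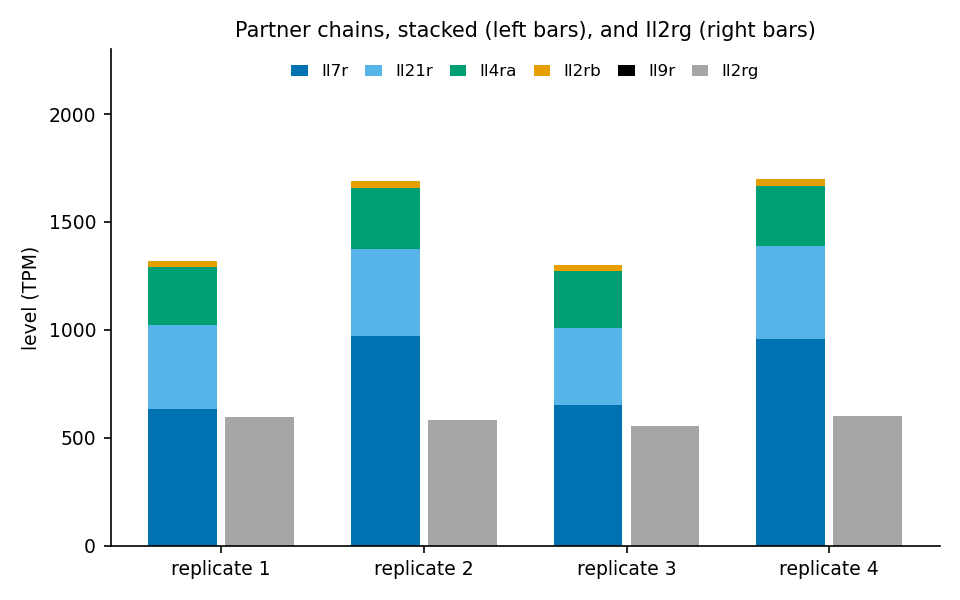
For each replicate the left bar stacks the TPM of the 5 private chain genes that pair with the common gamma chain and the right bar gives the TPM of Il2rg. The stacked bars reach 1302 to 1699 TPM and the Il2rg bars 554 to 602 TPM, and most of the difference between stacked bars lies in the Il7r segment.

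Read as whole receptors, each complex has a chain of lowest RNA level. For the IL-7 receptor it was Il2rg at 584 ± 21.03 TPM with the deposited lengths, but Il7r on average under the 3 other lengths in the plot of gene lengths, at 793, 531 and 520 TPM against 829, 609 and 1056 TPM of Il2rg. For the IL-21 receptor it was Il21r at 395 ± 32.6 TPM and for the type I IL-4 receptor Il4ra at 274 ± 9.50 TPM. The IL-2 and IL-15 receptor of 2 chains had Il2rb at 30.7 ± 1.4 TPM as its lowest, the 3-chain IL-15 receptor Il15ra at 6.04 ± 1.37 TPM and the 3-chain IL-2 receptor Il2ra at 4.14 ± 0.863 TPM. Chains outside the gamma family can take the place of Il2rg. Crlf2, which pairs with IL7RA to bind TSLP, was at 65.9 ± 3.89 TPM, with 69.4, 66.7, 67.2 and 60.3 TPM in replicates 1 to 4. Il13ra1, which pairs with IL4RA in the type II receptor, had 26 fragments in all and 0.148 ± 0.124 TPM, and the decoy receptor gene Il13ra2 had 0 counts in every library.

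The ligand genes were low. Of 8 ligand genes 1 reached 1 TPM in every library, with a list median of 0.0534 TPM. That gene was Il2, the growth factor gene of activated T cells, with 6.82, 3.70, 3.69 and 4.33 TPM in replicates 1 to 4 and a mean of 4.63 ± 1.49 TPM. Il2 and its receptor gene Il2ra were both highest in replicate 1. Il2 rested on 65, 42, 60 and 64 fragments in replicates 1 to 4. For neither gene did the spread between replicates pass the threshold (edgeR adjusted p = 0.995 for both), and no relation between them was tested. Il21 was at 0.730 ± 0.352 TPM from 161 fragments, also highest in replicate 1 at 1.23 TPM. Il9 had 12 fragments over the 4 libraries, Il13 had 5, and Il4 and Il15 had 1 each. Il7 and Tslp, which stromal and epithelial cells are known to make, had 0 counts, which allows up to 0.0636 TPM for Il7 and up to 0.318 TPM for Tslp in the shallowest library.

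The kinases and transcription factors that act below these receptors were all measured well above the ligands. All 4 JAK kinase genes reached 1 TPM in every library, with a median of 146 TPM, led by Jak1 at 655 ± 22.2, Jak3 at 173 ± 18.99 and Jak2 at 120 ± 6.20 TPM. Jak3, whose protein binds the common gamma chain, was highest in replicate 1 at 192 TPM and lowest in replicate 3 at 147 TPM. All 5 STAT genes did so too. Stat6, which acts below IL-4, was at 292 ± 27.3 and Stat5b at 189 ± 11.01 TPM. Stat3, which acts below IL-21, was at 117 ± 5.72 TPM. Of the 9 adaptor and PI3-kinase genes 7 reached that level, led by Pik3cd, the lymphocyte PI3-kinase catalytic subunit gene, at 618 ± 20.9 and Grb2 at 176 ± 16.2 TPM.

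Feedback and target genes were measured as well. Of 7 feedback inhibitor genes 6 reached 1 TPM in every library, with a median of 56.6 TPM, led by the phosphatase gene Ptpn6 at 453 ± 75.5 and Socs3 at 198 ± 23.1 TPM. Ptpn6 had 384, 476, 404 and 550 TPM in replicates 1 to 4. Cish and Socs1, which STAT5 is known to induce, were at 15.4 ± 3.33 and 56.6 ± 7.32 TPM, and Socs2 was at 0.0299 ± 0.00816 TPM. Of 12 genes listed as targets 11 reached that level, with a median of 82.8 TPM, led by the survival gene Mcl1 at 566 ± 54.2, the cyclin gene Ccnd2 at 234 ± 48.2 and the kinase gene Pim1 at 126 ± 5.92 TPM. The survival gene Bcl2, a known target of IL-7 in T cells, was at 91.7 ± 6.33 TPM. With no control group these levels do not show whether any of the cytokines had acted.

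Over the 8 lists of ligands, partner chains and other pathway genes, without the receptors themselves, 44 of 57 genes reached 1 TPM in every library.

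**Figure D4:**
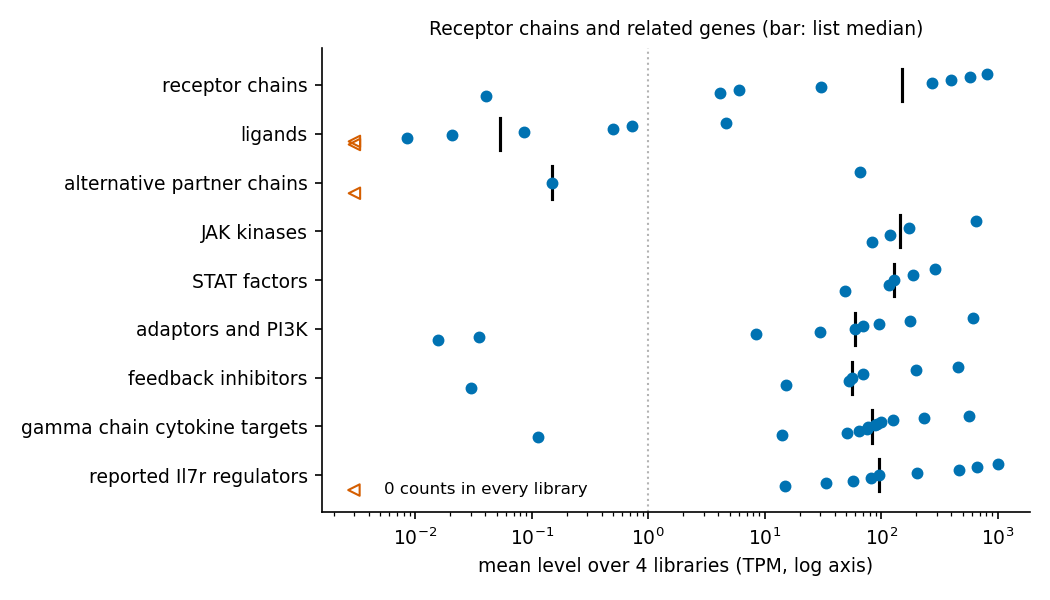
Each point is the mean TPM (log axis) of 1 gene over the 4 libraries, by list, with a bar at the list median and open triangles for genes at 0 counts in every library. The ligand genes lie at or below 4.63 TPM, while the medians of the kinase, STAT, adaptor, feedback, target and regulator lists lie between 56.6 and 146 TPM.

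The genes reported to regulate Il7r transcription in lymphocytes were all measured, with 9 of 9 at 1 TPM or more in every library and a median of 96.0 TPM. Ets1 was at 1000 ± 48.7, the Ikaros gene Ikzf1 at 664 ± 28.4, Klf2 at 464 ± 18.5 and Foxo1 at 205 ± 31.2 TPM. Foxo1, whose protein is known to activate Il7r in naive T cells, had 227, 190, 235 and 168 TPM in replicates 1 to 4. It was low in replicates 2 and 4, where Il7r was high, and high in replicates 1 and 3, where Il7r was low. Its spread was not past the threshold (edgeR adjusted p = 0.578), and with 4 libraries no relation between the genes was tested. Gfi1, a repressor of Il7r, was at 14.9 ± 2.90 TPM.

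Whether any of the receptor genes varied between replicates more than other genes of its abundance was tested with edgeR's quasi-likelihood dispersion over all 12464 genes past the filter. At an adjusted p below 0.05, 0 of the 7 members tested were called, and the background was 24 of 12464 genes (0.193%). Xist and Ddx3y were among the genes called (edgeR adjusted p = 1.41e-06 and 3.54e-06), so the spread tested includes the difference in sex-linked transcripts. At an unadjusted p below 0.05, 1 of 7 members was called, Il7r, against 665 genes (5.34%). As DESeq2 dispersion outliers 1 of 7 was called, Il7r again, against 108 of 12464 genes. Il7r had an unadjusted p of 0.000976 and an adjusted p of 0.190 in the edgeR test. It passed the threshold without replicate 4 (edgeR adjusted p = 0.00673), where 86 of 12472 genes were called. It also passed with no filter on low counts (edgeR adjusted p = 6.67e-09), where 349 of 21421 genes were called. Both settings thus called more genes in all than the main run, with its 24 of 12464. Under the other settings the edgeR adjusted p of Il7r lay between 0.188 and 0.519. The other 6 members had edgeR adjusted p-values of 0.961 to 0.995, and of all 45 pathway genes tested 0 were called.

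Deviations from the gene mean showed which library set each spread. On the log2(CPM + 1) scale Il7r deviated by -0.31, 0.29, -0.24 and 0.27 in replicates 1 to 4, and Il15ra by 0.37, 0.03, -0.14 and -0.26. Il2rg, Il4ra and Il2rb stayed between -0.07 and 0.05. Replicate 3 held the lowest TPM of 6 of the 8 genes and the highest of 0, whereas replicates 2 and 4 held the highest of 3 each. This tally includes Il9r, whose few fragments cannot rank the libraries. It also includes Il4ra, which on CPM was lowest in replicate 1, at 459 against 464 in replicate 3. Replicate 3 was also the library with the lowest mean of the interferon response genes, whose part in the tally was not tested. No such tally over all genes is given beside it, so it is not read as a trait of these 8 genes. The SDs of Il15ra and Il2ra lay at percentiles 97.6 and 96.7, of Il21r at 66.1, and of Il2rb, Il2rg and Il4ra at 21.6, 12.7 and 10.3 of protein-coding genes at a mean of 10 CPM or more, a floor below which Il15ra and Il2ra themselves lie.

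**Figure D5:**
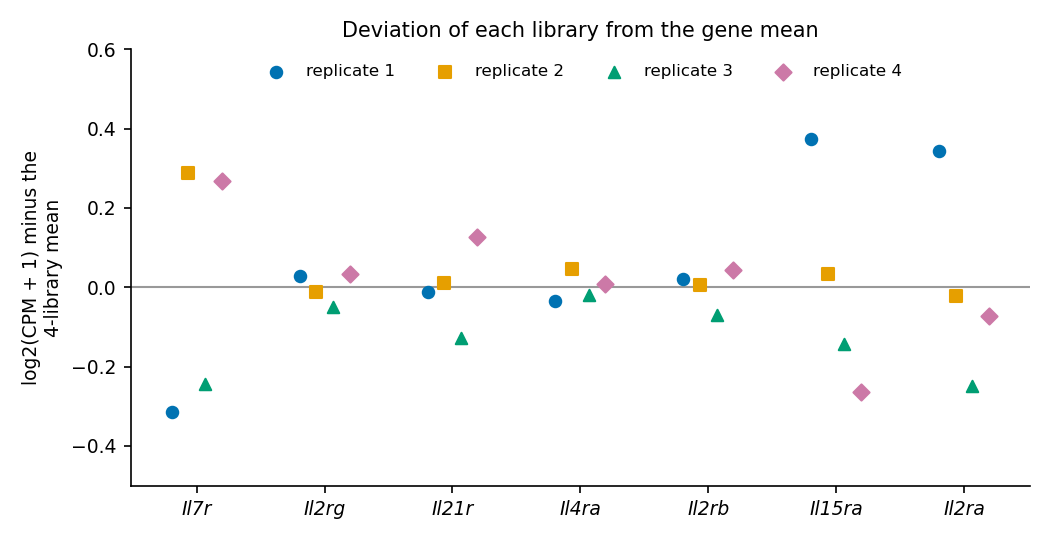
The plot gives, for the 7 genes past the filter, each library's log2(CPM + 1) minus the gene's mean over the 4 libraries. Il7r falls into replicates 2 and 4 above and replicates 1 and 3 below its mean, Il15ra and Il2ra are highest in replicate 1, and Il2rg, Il4ra and Il2rb stay close to 0.

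Genes with a pattern like that of Il7r were looked for among the same 8125 genes by the distance between centred log2(CPM + 1) values over the 4 libraries, whose median was 0.590. The 5 nearest were Pde3b at a distance of 0.0762, Slc27a4 at 0.0975, Otud3 at 0.128, Ppp1r21 at 0.129 and Akap12 at 0.130. Pde3b, a cyclic nucleotide phosphodiesterase gene, had 77.5, 124, 78.0 and 114 TPM in replicates 1 to 4. The fatty acid transport protein gene Slc27a4 had 23.1, 33.1, 23.5 and 35.5 TPM. None of the 5 was called in the spread test, with edgeR adjusted p-values between 0.113 and 0.921. They were picked for their likeness from 8125 genes over 4 points, which is a description of these libraries.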

How the data were processed

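RNA-seq libraries from 4 samples of mouse primary cells labelled Th17 formed 1 group. The deposited values are raw counts of fragments per gene in 4 tables. The file headers name featureCounts 1.4.6-p4 and the mm10 exons of GENCODE M13, with paired fragments on the reverse strand and no option for fragments that map to several places or genes. The sources used here do not give the aligner. The assay is named total RNA-seq in the labels, and the title of the linked library protocol names poly(A)+ RNA. Text listings of files were not used.

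Gene IDs were given GENCODE M21 symbols, which left 224 of 50600 IDs without one. TPM was computed from counts and the exon length in the same tables, and CPM from counts and library totals, which run from 29041979 to 48808978. Intervals are exact Poisson, and a count of 0 allows up to 3 counts. Both cover counting error only. Spread between replicates was tested over all genes with edgeR 4.0.16 in R 4.3.3 (intercept only, TMM, filterByExpr, one-sided F test of the quasi-dispersion against the prior trend, Benjamini-Hochberg, threshold 0.05) and with DESeq2 1.42.0 as an alternative. The edgeR step was tested on simulated data. For pairs, log2(TPM + 0.1) ratios entered an exact sign-flip permutation test (two-sided).

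The members and the 22 gene lists were chosen with earlier results of these data known. Named genes are all members, ligands and alternative partner chains, up to 5 genes at 100 TPM or more of each other pathway list, up to 4 genes of the T cell, naive and Th17 lists with Il17a and Il17f, up to 2 of each other marker list, the 5 genes nearest to the most variable member at 10 TPM or more, and genes next to a member. Cd8a, Cd8b1, Bach2, Foxp3, Cish, Socs1, Socs2, Bcl2, Gfi1, Xist and Ddx3y were named after their values were seen. The alternative gene lengths were chosen after seeing the data. Upstream sequences are from RefSeq. Some genes are not reported here.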

Additional observations from a re-analysis of the deposited data

Results flagged for a closer look

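Of 78 gene and ratio values examined over the 4 libraries, 4 had 1 library so far from the other 3 that the gap divided by the whole range exceeded Dixon's 95% critical value. Chance flags about 1 in 20 groups, and 4 of 78 is close to that share. The ligand genes Il4 and Il15 gave a gap of 1.0 each, because a single fragment was counted in replicate 2 for Il4 and in replicate 4 for Il15 and none elsewhere. Batf, a transcription factor gene of the Th17 list, gave 0.901, with 79.7, 79.7, 81.8 and 101 TPM in replicates 1 to 4. Prf1, listed as a target of these cytokines and as a CD8 T cell marker, gave 0.900, with 62.4, 60.9, 61.0 and 76.0 TPM. Replicate 4 was the high library for both, and it was also the one with the highest heat shock genes. The part of that library's state was not tested. No member and no ratio between members was among the 4.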

How the results depend on the processing

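Of 280 alternative pair ratios 275 kept their direction and 5 reversed. On CPM, Il4ra over Il2rg was 0.24 and Il4ra over Il21r 0.33 (log2), where the length of Il4ra is the cause by construction. Il7r over Il2rg was -0.093 with unshared exon bases, -0.23 with the longest coding transcript and -1.05 with that transcript's unshared bases. The partner sum over Il2rg was 4.03 on CPM, 1.79 with unshared exon bases, 1.90 with the longest transcript, 1.07 with its unshared bases, and 2.46 to 2.69 when each replicate was left out. Genes called for spread numbered 24, against 349 with no filter, 5 with the non-robust fit, 10 when a mean CPM of 5 was asked for, 108 by DESeq2, and 7 to 86 when each replicate was left out (7 without replicate 3, 13 without replicate 2, 86 without replicate 4); the cause was not tested. Among members only Il7r changed its call. With exon lengths shortened by 200 bases Il7r was at 300 and Il2rg at 223 TPM, with the same order of all 8 genes in every library. The means of all 8 genes were lower than with the deposited lengths. This setting gave genes of 200 bases or fewer a length of 1 base. By construction that raises their share of the fixed total at the cost of long genes. How far it lowered the 8 means was not examined, so only the order is compared. The count of members at 1 TPM stayed at 7 under every alternative run, and that of pathway genes was 43 at 5 TPM. Depth limits Il9r and the ligand genes. No paired analysis was possible because the labels give 1 group.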
